A study of Mus musculus with 7 samples.

Results

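The genes described here are 40 cell cycle genes of the mouse, 17 of DNA replication and its control at the G1/S step and 23 of G2 and mitosis, listed by symbol. Each was found once by its Ensembl identifier among the 27138 features of the deposited count table, and all 40 had enough reads to be among the 16910 features tested. They were read in whole mouse embryonic pancreas at E15.5, in polyadenylated RNA of 4 WT and 3 cKO animals, each library from an independent animal. Both groups were homozygous for a floxed allele (fl/fl) of 2610035D17Rik, a long non-coding RNA gene whose human counterpart is LINC00673. The cKO embryos also carried Pdx1Cre, a Cre recombinase driven by the promoter of the pancreatic epithelial gene Pdx1, and the WT embryos carried none, so the deletion cannot be told apart from any effect of Cre itself. A whole pancreas also holds mesenchyme, vessels, nerves and blood, which lie outside the Pdx1 lineage.

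Cells copy their DNA once in S phase and divide the copies in mitosis. Before S phase the helicase made of Mcm2 to Mcm7 is loaded onto origins, and E2F transcription factors, released from the Rb proteins by the cyclin-dependent kinases of G1, switch on the genes of replication. Genes of G2 and mitosis come on later through the MuvB complex with B-Myb and FoxM1, and the related DREAM complex holds both groups down in cells that have left the cycle. In the pancreas at this stage epithelial progenitors, early acinar cells and mesenchyme divide, whereas newly formed endocrine cells largely stop. In whole tissue, fewer dividing cells and less of these RNAs in each dividing cell cannot be told apart.

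The promoters of the 2 groups held 3 known cell cycle motifs in different shares, and 6 windows are shown, 3 of each group, to make this visible. Windows of 300 bases, 250 before and 50 from the annotated start on, came from RefSeq on GRCm38.p6 and were found for 33 of the 40 genes. Ccna2, Aurkb, Kif20a, Tpx2, Mcm4, Gins2 and Ccne2 had no entry. The promoter set held 32851 entries for 27025 symbols. Only the first listed entry of each symbol was counted, so a motif at another start of the same gene was missed. Capitals mark 3 motifs searched on both strands: the CHR, an element of mitotic promoters bound by the DREAM and MuvB complexes, as TTTGAA or TTCGAA, the NF-Y site as CCAAT, and the E2F site as TTTGGCGC, TTTCCCGC, TTTCGCGC or TTTGCCGC. E2F words on opposite strands overlap in Mcm5 and in Mcm6, and no capital run below joins different motifs.
Ccnb2 (chr9:70421505-70421804, minus strand): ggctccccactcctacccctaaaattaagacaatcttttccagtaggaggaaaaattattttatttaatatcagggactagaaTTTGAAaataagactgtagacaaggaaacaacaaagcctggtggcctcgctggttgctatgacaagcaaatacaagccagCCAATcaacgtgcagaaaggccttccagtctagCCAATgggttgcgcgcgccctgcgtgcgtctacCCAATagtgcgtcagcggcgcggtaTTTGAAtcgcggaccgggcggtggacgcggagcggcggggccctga
Cdc20 (chr4:118437294-118437593, minus strand): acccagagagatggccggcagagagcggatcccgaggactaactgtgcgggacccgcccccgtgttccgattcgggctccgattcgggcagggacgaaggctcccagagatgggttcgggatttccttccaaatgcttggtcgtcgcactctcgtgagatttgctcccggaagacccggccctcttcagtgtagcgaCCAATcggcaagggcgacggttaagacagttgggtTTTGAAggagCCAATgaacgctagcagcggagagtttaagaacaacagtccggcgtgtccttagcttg
Mki67 (chr7:135716330-135716629, minus strand): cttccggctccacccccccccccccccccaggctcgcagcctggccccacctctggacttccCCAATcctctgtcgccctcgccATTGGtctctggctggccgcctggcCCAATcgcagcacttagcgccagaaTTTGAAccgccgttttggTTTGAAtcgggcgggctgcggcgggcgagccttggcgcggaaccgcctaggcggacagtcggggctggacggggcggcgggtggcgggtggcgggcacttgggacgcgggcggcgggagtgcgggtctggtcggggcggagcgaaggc
Mcm5 (chr8:75109259-75109558, plus strand): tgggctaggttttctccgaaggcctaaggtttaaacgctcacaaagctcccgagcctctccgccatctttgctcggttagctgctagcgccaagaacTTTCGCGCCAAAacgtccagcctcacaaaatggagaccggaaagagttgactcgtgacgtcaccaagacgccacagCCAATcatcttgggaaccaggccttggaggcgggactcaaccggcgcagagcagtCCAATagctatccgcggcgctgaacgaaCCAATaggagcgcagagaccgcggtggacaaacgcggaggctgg
Mcm6 (chr1:128359656-128359955, minus strand): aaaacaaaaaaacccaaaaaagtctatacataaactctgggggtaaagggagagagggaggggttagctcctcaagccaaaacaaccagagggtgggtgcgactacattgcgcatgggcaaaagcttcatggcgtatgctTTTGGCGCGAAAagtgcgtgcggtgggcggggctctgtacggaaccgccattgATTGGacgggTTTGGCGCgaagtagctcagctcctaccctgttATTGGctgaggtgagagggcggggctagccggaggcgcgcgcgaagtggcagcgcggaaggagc
Cdc6 (chr11:98907901-98908200, plus strand): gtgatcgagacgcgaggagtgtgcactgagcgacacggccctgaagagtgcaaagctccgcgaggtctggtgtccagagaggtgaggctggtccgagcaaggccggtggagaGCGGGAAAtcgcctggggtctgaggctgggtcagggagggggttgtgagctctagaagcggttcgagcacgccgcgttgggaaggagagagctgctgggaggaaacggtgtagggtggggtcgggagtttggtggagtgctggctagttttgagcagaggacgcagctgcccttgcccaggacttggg
The CHR letters were present in 14 of 19 mitotic windows (73.7%), in 3 of 14 replication windows (21.4%) and in 19.4% of the windows of all 27025 symbols in that table. E2F letters were present in 5 of 14 replication windows (35.7%), those of Mcm3, Mcm5, Mcm6, Mcm7 and Cdc6, in 1 of 19 mitotic windows (5.26%, Cdk1) and in 2.32% of all windows. CCAAT was present in 17 of 19 mitotic windows (89.5%), 9 of 14 replication windows (64.3%) and 37.9% of all windows. All 14 mitotic windows with a CHR also held CCAAT, a pair present in 7.7% of all windows. A match is a match of letters only, and binding was not measured. Only the words given were searched, so motifs of another form were not counted. The Chek1 window, for example, holds TTTGGCGG, which differs from TTTGGCGC in its last base.

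**Figure D1:**
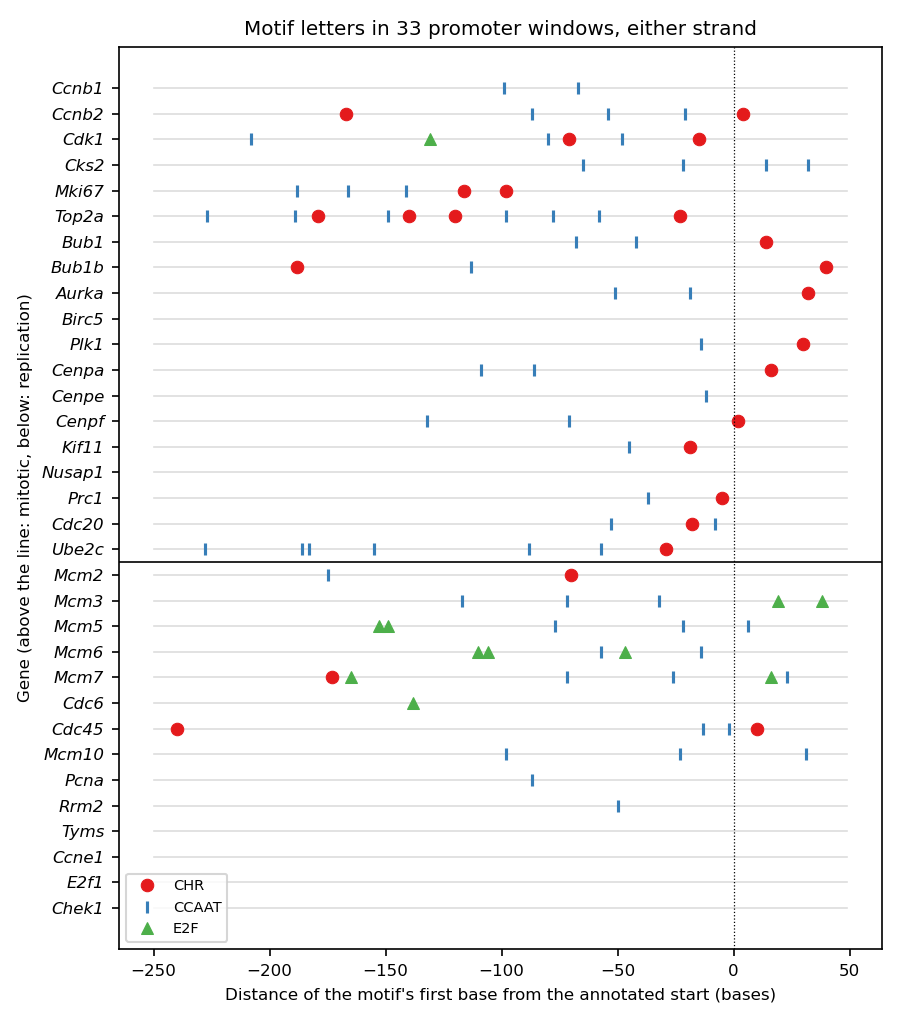
Positions of the 3 motifs in the promoter windows of 33 genes, as the distance in bases of each motif's first base from the annotated start (x axis), with a row for each gene. CHR letters (circles) lie in 14 of the 19 mitotic rows above the line, and E2F letters (triangles) in 5 of the 14 replication rows below it.

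Libraries held 14883918 to 17767373 counts. WT replicate 4 was the shallowest, with the next library at 16814480 counts, and had the lowest TMM factor (0.952). The targeted gene gave groups that did not overlap. 2610035D17Rik had 9.08, 8.76, 7.93 and 8.83 CPM (counts scaled to the library's total and TMM factor) in WT replicates 1 to 4 and 2.01, 3.38 and 2.27 CPM in cKO replicates 1 to 3, the order kept for all values. Its level in cKO was 29.5% of WT (95% interval 21.1% to 41.3%, edgeR adjusted p = 0.0902 over all tested features, DESeq2 adjusted p = 9.3e-10), and which of its exons are deleted is not given in the labels. Digestive enzyme RNAs, which mark acinar cells, summed to 28263 CPM or more in every library, and 7 progenitor and trunk genes, Pdx1 and Sox9 among them, to 375 CPM or more. Xist, the RNA of the inactive X chromosome of females, had 20326 counts in WT replicate 2 and 1 to 8 in each other library. In the table's header WT replicate 4 carries another number after its genotype than the other libraries do, and what the number marks is not given.

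Levels were also set against the length of each gene's longest annotated coding transcript. Which transcript was expressed was not tested, and the order below depends on that choice of length. By this measure the highest of the 40 RNAs was that of Pcna, the sliding clamp of the replicative polymerases. Pcna had 140 CPM per kb in WT and 141 CPM per kb in cKO. It was followed by 4 mitotic genes, Cdc20, the activator that turns the anaphase-promoting complex on its targets (98.1 CPM per kb in WT), Top2a, the topoisomerase that untangles sister DNA (85.8 CPM per kb), Cks2, a small subunit of Cdk complexes (85.1 CPM per kb), and Ube2c, the ubiquitin-conjugating enzyme of the anaphase-promoting complex (81.1 CPM per kb). The ranges of these 4 over the libraries overlap. The 6 helicase subunits lay close together, from 44.9 CPM per kb for Mcm4 to 71.6 CPM per kb for Mcm7 in WT, and the nucleotide enzyme Rrm2 lay at 72.4 CPM per kb. The factors that load or start the helicase were lower in WT by this measure, with 13.5 CPM per kb for Cdc45, 9.64 for Cdc6, 9.29 for Gins2 and 7.69 for Mcm10. Kif11, the motor that pushes spindle poles apart, was lowest of all at 1.78 CPM per kb in WT, less than any other of the 40 genes in any library. The part of annotation or read mapping in this low value was not tested.

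**Figure D2:**
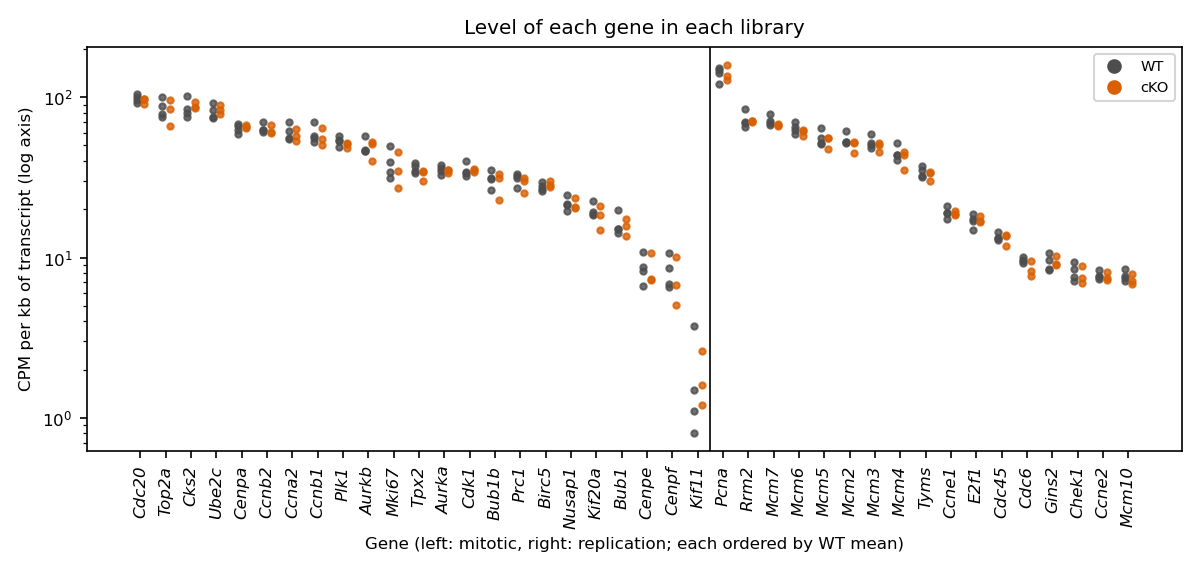
CPM per kb of the longest annotated coding transcript (y axis, log scale) for each of the 40 genes (x axis), with a point for each of 4 WT and 3 cKO libraries. Pcna is highest at about 140 CPM per kb, Kif11 is lowest, and the WT and cKO points overlap for every gene.

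None of the 40 genes passed the test between cKO and WT. The quasi-likelihood test of edgeR called 0 of 40 at a Benjamini-Hochberg adjusted p under 0.05, 0 of 40 had an unadjusted p under 0.05, and DESeq2 called 0 of 40. Over all tested features edgeR called 0.00591%, 1.38% had an unadjusted edgeR p under 0.05 (0.716% lower in cKO) and DESeq2 called 0.0738%, so 0 among 40 is close to the background. The WT and cKO ranges overlapped for all 40 genes, where they were apart for 2.72% of all tested features (1.43% with cKO lower). The edgeR adjusted p was 0.9999 for each gene. For 37 of the 40 genes the 95% interval lay inside a 1.5-fold change in either direction. It did so for 62.4% of all tested features, and for 9571 of the 10702 features with a mean above 10 CPM. The 3 exceptions among the 40 genes were Mki67, Cenpf and Kif11.

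The 17 replication genes lay slightly lower in the cKO fit, 14 of them below 0, with a median log2 fold change of −0.07. The same median was −0.01 over all tested features, of which 54.0% lay below 0. Since the genes moved together from embryo to embryo, as described further on, the 14 are not separate observations. All 17 had intervals inside 1.5-fold.

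All 6 subunits of the Mcm2 to Mcm7 helicase, which unwinds DNA at the fork, lay below 0, with log2 fold changes from −0.13 to −0.07. Mcm2 had 177, 208, 178 and 176 CPM in WT and 152, 178 and 176 CPM in cKO. WT replicate 2 was high and cKO replicate 1 low, and the other 5 libraries lay together. The fit put Mcm2 in cKO at 91.3% of WT (95% interval 78.7% to 106%, exact permutation p = 0.343 over the 35 divisions of the libraries). Mcm6, the most abundant helicase RNA by CPM, had 270.1, 306, 286 and 257 CPM in WT and 249, 269 and 271 CPM in cKO. It was at 93.9% of WT (95% interval 82.0% to 107%). Mcm7 had 211, 234, 204 and 198 CPM in WT and 200.2, 197 and 201 CPM in cKO, a narrow cKO range near the low end of WT. Reads of Mcm7 can be shared with the genes Ap4m1 and Cops6 on the opposite strand, which together with 2 microRNA genes overlap 12.6% of its exonic bases. Mcm3, Mcm4 and Mcm5 lay at 94.2%, 92.4% and 95.2% of WT, each with WT replicate 2 highest and cKO replicate 1 lowest.

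Of the factors that load and activate the helicase, none passed the test. Cdc6, which with Cdt1 loads the helicase onto origins, had 42.9, 46.8, 43.9 and 44.4 CPM in WT and 37.9, 43.6 and 35.2 CPM in cKO. cKO replicates 1 and 3 lay below every WT library, and cKO replicate 2 lay among them. The fit gave 87.5% of WT (95% interval 75.5% to 101%), with an unadjusted edgeR p of 0.0705 and an exact permutation p of 0.0571, where the smallest possible is 0.0286. It was the smallest p among the 40 genes. Without cKO replicate 2, the cKO library among the WT values, its unadjusted edgeR p was 0.0169 and its adjusted p 0.9997. This p is not separate support for a difference, since the library left out is the cKO library nearest to WT. In the other fits that left out a single library, no gene of the 40 had an unadjusted p under 0.05. Cdc45, a subunit of the active helicase, had 27.5 to 31.1 CPM in WT and 25.2 to 29.6 CPM in cKO. Mcm10, which helps start the helicase, had 34.7 to 41.1 CPM in WT and 33.3 to 38.6 CPM in cKO. Gins2, a subunit of the GINS complex of the helicase, had 32.6 to 41.7 CPM in WT and 34.9 to 40.1 CPM in cKO. Of its annotated exonic bases, 67.3% lie under exons of Gse1 on the other strand. Its count may include reads of Gse1 or lack reads left out as shared, and the counting settings are not given.

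Genes of the clamp, of nucleotide supply and of G1/S control overlapped as well. Pcna had 230.4, 214, 183 and 224 CPM in WT and 205, 196 and 240.0 CPM in cKO, which gave 100.4% of WT (95% interval 84.7% to 119%). Its highest and lowest libraries were cKO replicate 3 and WT replicate 3, unlike the helicase. Rrm2, the regulated subunit of ribonucleotide reductase, had 144 to 186 CPM in WT and 155 to 157 CPM in cKO, and Tyms, thymidylate synthase, 101 to 118 CPM in WT and 95.4 to 109 CPM in cKO. The 2 E-type cyclins that drive entry into S phase were at 99.2% of WT for Ccne1 (95% interval 86.4% to 114%) and 98.8% for Ccne2 (85.2% to 115%). Of the exonic bases of Ccne2, 17.4% lie under Ints8 on the other strand. E2f1, a transcriptional activator of the replication genes, had 40.7 to 51.1 CPM in WT and 45.6 to 49.7 CPM in cKO. Chek1, the checkpoint kinase of stalled forks, had 27.0 to 35.8 CPM in WT and 26.4 to 33.7 CPM in cKO.

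The 23 mitotic genes had a median log2 fold change of −0.04, with 18 of 23 below 0 in the fit and single values from −0.16 for Cenpf to 0.07 for Cks2. Among the drivers of mitotic entry, Cdk1, the mitotic kinase, had 147, 176, 149.6 and 142 CPM in WT and 156, 149 and 154 CPM in cKO. The cKO values sat inside the WT range, at 99.5% of WT (95% interval 86.4% to 115%). Ccnb1, its main mitotic cyclin, had 143, 173, 138 and 131 CPM in WT and 125, 137 and 160.5 CPM in cKO, at 96.5% of WT (95% interval 79.7% to 117%). Ccna2 and Ccnb2, the A-type and second B-type cyclin, were at 96.2% and 97.5% of WT, with 12.5% of the exonic bases of Ccna2 under Exosc9 on the other strand. Cks2 had 52.0 to 70.0 CPM in WT and 59.6 to 65.0 CPM in cKO, at 105% of WT (95% interval 88.3% to 124%).

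Mki67, which coats mitotic chromosomes and is the usual marker of dividing cells, varied more between embryos than between groups. It had 345, 501, 399 and 315 CPM in WT and 272, 349 and 459.9 CPM in cKO. The highest value was in WT replicate 2 and the lowest in cKO replicate 1, and cKO replicate 3 exceeded 3 of the 4 WT libraries. The fit put it at 92.3% of WT (95% interval 65.9% to 129%). Top2a showed the same order of its extremes, with 412, 527, 460.1 and 392 CPM in WT and 348, 442 and 505 CPM in cKO (96.4% of WT, 95% interval 76.6% to 121%).

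Kinases and checkpoint proteins of mitosis also overlapped. Plk1, a kinase of mitotic entry and spindle formation, had 119, 127, 116 and 107 CPM in WT and 106, 114 and 112 CPM in cKO (94.4% of WT, 95% interval 83.2% to 107%). Aurka, the kinase of the spindle poles, had 62.6 to 72.2 CPM in WT and 63.8 to 66.7 CPM in cKO. Aurkb and Birc5, which belong to the chromosomal passenger complex at the centromere, were at 97.8% and 104% of WT. Bub1 and Bub1b, which hold back anaphase until chromosomes are attached, were at 96.9% and 93.9% of WT. Cdc20, their target, had 171, 188, 165 and 179 CPM in WT and 164, 175 and 175 CPM in cKO (97.2% of WT, 95% interval 86.1% to 109.8%). Ube2c was at 103% of WT, and 22.8% of its exonic bases lie under Tnnc2 on the other strand.

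Centromere and spindle genes differed in how much they varied between libraries. Cenpa, the histone variant that marks centromeres, had 99.8, 97.5, 91.6 and 87.0 CPM in WT and 95.9, 94.9 and 98.4 CPM in cKO, a 1.15-fold range over 7 libraries. Cenpf, a long coiled-coil protein of the kinetochore, had 75.9, 118, 95.7 and 72.5 CPM in WT and 56.4, 75.0 and 112 CPM in cKO, a 2.10-fold range. Its interval was correspondingly wide, at 58.4% to 138% of WT. Cenpe, the kinetochore motor, had 52.2 to 85.3 CPM in WT and 57.3 to 84.6 CPM in cKO. Tpx2, a spindle assembly factor that activates Aurka, had the smallest mitotic p, with 164, 169.6, 152 and 147 CPM in WT and 132, 149 and 151 CPM in cKO (91.1% of WT, 95% interval 79.5% to 104%, unadjusted edgeR p = 0.156, exact permutation p = 0.229). Prc1 and Nusap1, which bundle spindle microtubules, were at 93.6% and 99.2% of WT, with 11.1% of the exonic bases of Prc1 under Rccd1 on the other strand. Kif20a, a motor of the spindle midzone, was at 91.5% of WT, with 29.3% of its exonic bases under Cdc23 on the other strand.

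Kif11 stood apart from the rest of the group. It had 98, 300, 124 and 55 counts in WT and 131, 98 and 229 counts in cKO, or 5.30, 17.9, 7.18 and 3.89 CPM in WT and 7.74, 5.80 and 12.7 CPM in cKO. WT replicate 2 and cKO replicate 3 were high and WT replicate 4 was low, a 4.60-fold range. No other gene's exons overlap its own in the GENCODE M21 annotation, which may differ from the one the authors counted with. The part of annotation or read mapping in its low counts was not tested, so they may not give its true level. Its interval, 41.3% to 252% of WT, bounds little.

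**Figure D3:**
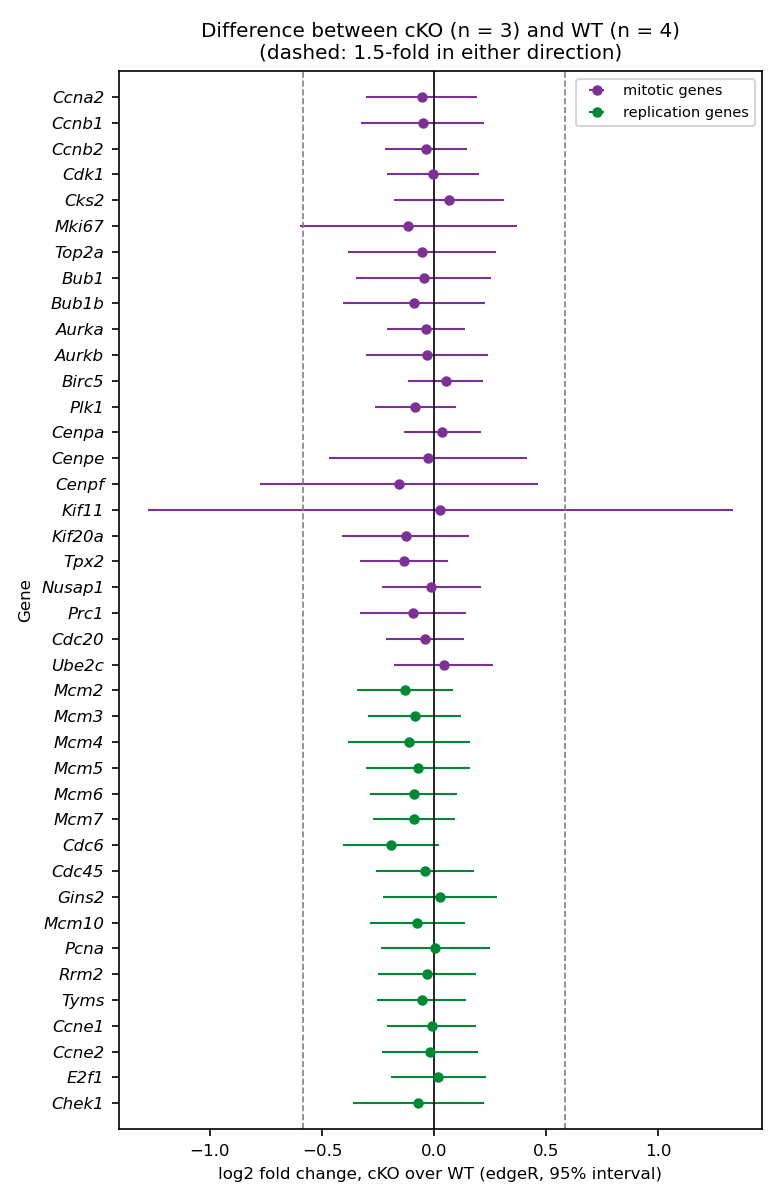
Fitted log2 fold change of cKO (n = 3) over WT (n = 4) with its 95% interval (x axis) for each of the 40 genes (y axis), with dashed lines at 1.5-fold. All 40 intervals span 0, and those of Mki67, Cenpf and Kif11 pass a dashed line.

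The genes varied together between embryos. WT replicate 2 held the highest CPM of the 7 libraries for 34 of the 40 genes, 21 of 23 mitotic and 13 of 17 replication genes. cKO replicate 1 held the lowest for 21 genes, 13 mitotic and 8 replication, and WT replicate 4 for 7. Relative to each gene's mean over the libraries, the median log2 deviation of the mitotic genes was 0.23 in WT replicate 2, 0.12 in cKO replicate 3, −0.12 in WT replicate 4 and −0.14 in cKO replicate 1. For the replication genes it was 0.17, 0.04, −0.01 and −0.13 in the same libraries. In WT replicates 1 and 3 and cKO replicate 2 both medians lay within 0.03 of 0. The mean log2 level of the mitotic genes had a within-group SD of 0.17 over libraries and that of the replication genes 0.08, both larger in size than the median difference between the groups.

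**Figure D4:**
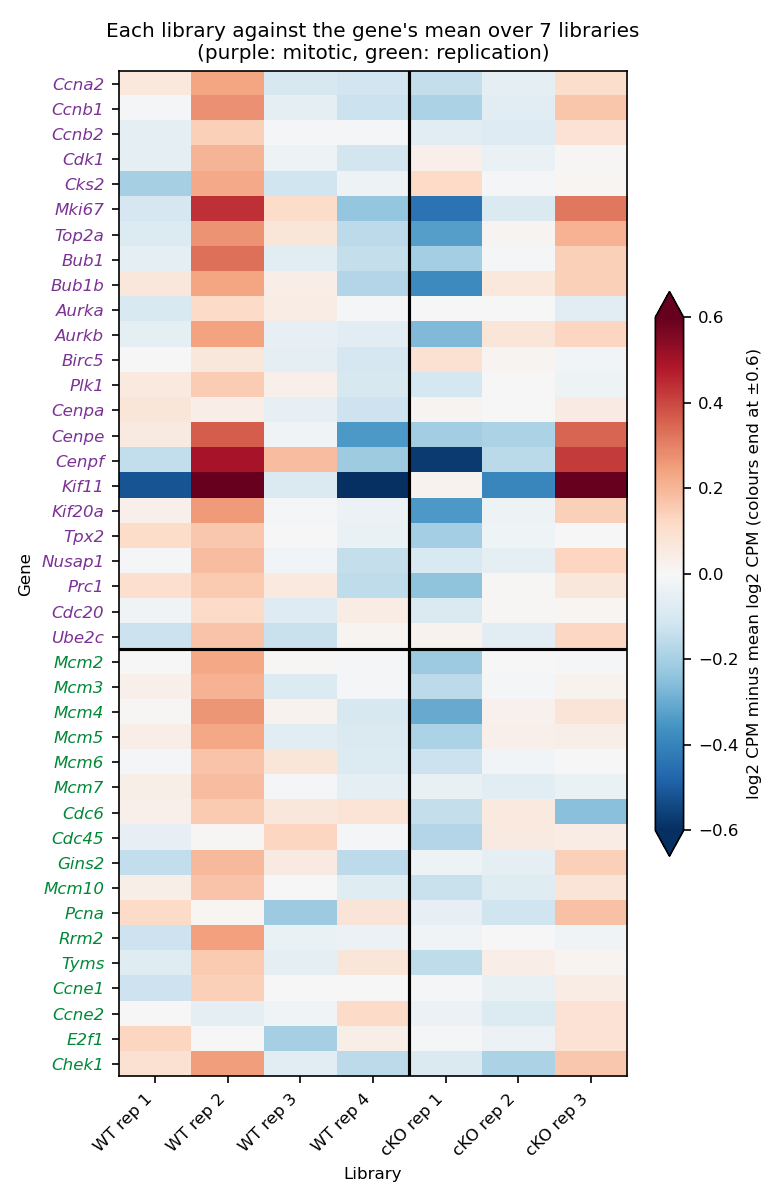
log2 CPM of each gene (rows) in each library (columns) minus that gene's mean over the 7 libraries, in colour, with mitotic genes above the horizontal line and WT libraries left of the vertical line. The WT replicate 2 column is highest for 34 of 40 genes, and the cKO replicate 1 column is lowest for 21.

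The group medians depended on single libraries, and the mitotic median changed sign without either of 2 of them. Without WT replicate 2 the mitotic median was 0.03 and the replication median −0.03, and 18 of the 40 genes lay below 0 in place of 32. Without cKO replicate 1 the medians were 0.03 and −0.0015, and 16 genes lay below 0. Without cKO replicate 3 they were −0.13 and −0.09, and without WT replicate 4 −0.11 for both. In none of these fits did edgeR call any of the 40 genes. Xist was found at a high count in WT replicate 2 alone, and the part of embryo sex in its values was not tested.

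In 5 of the 7 libraries the deviations of all genes also went with the length of the RNA, which the choice of genes did not use. In cKO replicate 1 the median log2 deviation of all genes above 10 CPM was 0.28 for transcripts up to 1000 bases and −0.38 for transcripts over 8000 bases. In WT replicate 2 the same medians were −0.05 and 0.18, in WT replicate 3 −0.12 and 0.19, in cKO replicate 3 −0.10 and 0.20 and in WT replicate 4 0.10 and −0.12. WT replicate 1, at −0.14 and −0.07 with 0.04 for 3001 to 4000 bases between them, and cKO replicate 2, at 0.03 and 0.01, had no trend of this kind. The longest of the 40 transcripts, those of Cenpf (11130 bases), Mki67 (10061 bases) and Cenpe (7910 bases), had deviations of −0.57, −0.45 and −0.21 in cKO replicate 1 and 0.49, 0.44 and 0.36 in WT replicate 2. Over the 40 genes, which share these libraries, the deviation in cKO replicate 1 and log2 transcript length had a Pearson r of −0.617 and a Spearman rho of −0.456 (−0.656 and −0.523 over the 39 genes other than Kif11).

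The part of transcript length in the shared shifts was not tested. After the median of its length class was taken off each gene, the mitotic median in WT replicate 2 was 0.22 and the replication median 0.17, and in cKO replicate 1 they were −0.16 and −0.09 (0.23, 0.17, −0.14 and −0.13 before, in that order). Cks2, the shortest of the transcripts at 692 bases, had a deviation of 0.23 in WT replicate 2, its highest library, and of 0.12 in cKO replicate 1, above its mean there. In cKO replicate 1, 6 of the 40 genes lay above their means, among them the longer Birc5 (3334 bases, 0.09) and Cdk1 (4375 bases, 0.03). The short Pcna (1518 bases) and Ccnb2 (1531 bases) lay below theirs, at −0.05 and −0.07. With the length classes entered as offsets in the edgeR fit, a setting chosen after seeing the data, the group medians were −0.06 for mitotic and −0.05 for replication genes and 0 of 40 were called.

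**Figure D5:**
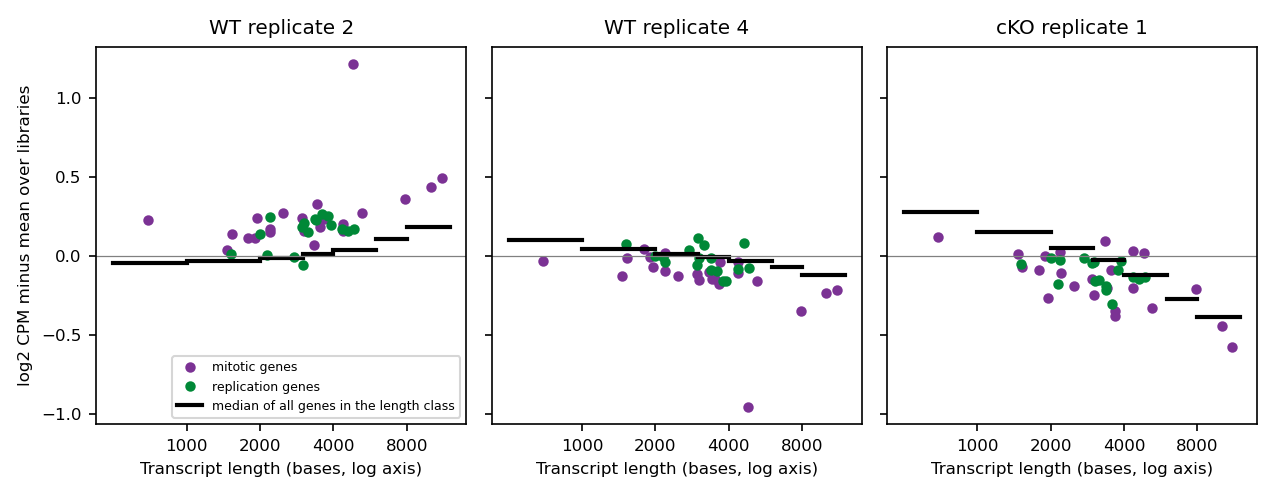
Deviation of each gene's log2 CPM from its mean over the libraries (y axis) against transcript length in bases (x axis, log scale) in 3 libraries, with black bars for the median of all genes above 10 CPM in each length class. The bars fall with length in cKO replicate 1, from 0.28 to −0.38, and most points of WT replicate 2 lie above the bars.

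No gene of the wider cell cycle machinery passed the test either. Of 149 further genes in 8 lists, 147 were tested, and edgeR called 0, with 0 at an unadjusted p under 0.05 and 0 called by DESeq2. Their median log2 fold change was −0.04, with 99 of 147 below 0. The 2 most negative of the 8 list medians were −0.09 for spindle, condensin and cytokinesis genes (20 of 23 below 0) and −0.10 for the S phase checkpoint and repair (11 of 12). The lowest p in these lists were those of Kif18b, a motor at microtubule plus ends (log2 fold change −0.19, unadjusted p = 0.106), and Timeless, a fork protection factor (−0.18, unadjusted p = 0.123). Kinetochore, cohesin and separase genes (14 of 25 below 0) had a median of −0.0036, origin recognition and licensing genes (9 of 17) −0.00048, polymerases, clamp loader and nucleotide enzymes (19 of 26) −0.04, G1 cyclins, Rb and E2F family genes (12 of 20) −0.03, and G2/M regulators (12 of 17) −0.03. In these 5 lists the smallest unadjusted p were those of Cdca5, which protects sister cohesion (0.122), Cdc7, the kinase that fires origins (0.145), Chaf1a, a chaperone that places histones on new DNA (0.188), Rbl1, an Rb family protein (0.242), and Lin52, a MuvB subunit (0.303).

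The CDK inhibitors were the only one of the 8 lists with a positive median, 0.12, and 5 of 7 tested members lay above 0. Cdkn2b, which blocks Cdk4 and Cdk6, was the single gene of the 147 whose groups did not overlap, with 0.702, 0.537, 0.637 and 0.989 CPM in WT and 1.30, 1.01 and 1.16 CPM in cKO. Its range in cKO starts just above the top of WT, at levels of about 1 CPM. Its log2 fold change was 0.69 (95% interval −0.03 to 1.42, unadjusted edgeR p = 0.0584, adjusted p = 0.9999, exact permutation p = 0.0571). Groups were apart in the same direction for 1.3% of all tested features. Cdkn1a, the inhibitor induced by p53, had 67.0, 69.7, 59.2 and 85.1 CPM in WT and 76.7, 97.3 and 79.8 CPM in cKO, so WT replicate 4 lay among the cKO values (log2 fold change 0.27, 95% interval −0.03 to 0.57). Cdkn1c, the imprinted inhibitor, had 508 to 584 CPM in WT and 491 to 667 CPM in cKO.

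RNAs of other cell types also differed between these embryos. In cKO replicate 1, the library lowest for 21 of the 40 genes, 13 liver genes such as Alb summed to 2115 CPM, 9 erythroid genes to 2834 CPM and 10 neuron and Schwann cell genes to 1078 CPM, the highest of the 7 libraries for each list. The same library had the lowest sum of the 7 progenitor and trunk genes, at 375 CPM against 446 to 515 CPM in the others. Its sum of 6 endothelial genes was also lowest, at 435 CPM against 458 to 533 CPM. Single genes did not all follow these sums. Of the endothelial genes only Cdh5 and Kdr were lowest there, whereas Pecam1 and Tek were lowest in WT replicate 2 and Emcn and Esam in cKO replicate 3. Of the progenitor and trunk genes, Foxa2 was lowest in WT replicate 1 and Hes1 in WT replicate 2. After cKO replicate 1, WT replicate 4 came next for liver at 1393 CPM and for erythroid genes at 2327 CPM. It was highest for 12 digestive enzymes at 59784 CPM. In WT replicate 2, highest for 34 genes, the same lists summed to 535 CPM for liver, 1844 CPM for erythroid genes, 264 CPM for neurons and Schwann cells and 30362 CPM for digestive enzymes. Each tested marker in these lists had counts in at least 1 library. Neuron and Schwann cell genes ranged from 264 to 882 CPM in WT and from 285 to 1078 CPM in cKO. WT replicates 1 and 3 had 882 and 723 CPM for this list, and cKO replicate 2 had 311 CPM. In these libraries both cell cycle medians lay near 0. The liver ranges were 398 to 1393 CPM in WT and 489 to 2115 CPM in cKO. Most of the sum in WT replicate 1, the lowest, came from Ttr (238 CPM) and Rbp4 (81.2 CPM), with Alb at 8.59 CPM. In cKO replicate 1 Ttr was at 358 CPM, Rbp4 at 119 CPM and Alb at 689 CPM. Digestive enzymes ranged from 28263 to 59784 CPM in WT and from 28810 to 50827 CPM in cKO. Endocrine genes ranged from 1914 to 2399 CPM in WT and from 2094 to 2588 CPM in cKO, and mesenchyme genes from 10068 to 12369 CPM and from 10112 to 11094 CPM. The part of these cells in the cell cycle values was not tested. Without both WT replicate 4 and cKO replicate 1 the medians were −0.02 for mitotic and −0.04 for replication genes, and 28 of 40 lay below 0.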

How the data were processed

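Poly-A RNA of 7 embryonic pancreases was sequenced, and the authors deposited raw counts for each feature and library. The submitters' processing notes name HISAT2, StringTie, featureCounts and build mm39, with roles, versions and settings not given in the sources used here. The library protocol, per the labels, describes no step that keeps the strand, so reads of overlapping genes on opposite strands cannot be told apart.

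The main test was edgeR 4.0.16 under R 4.3.3: filterByExpr (16910 of 27138 features), TMM factors (0.952 to 1.04), robust glmQLFit and glmQLFTest on the group alone, p-values adjusted by Benjamini-Hochberg over the features tested, and a threshold of 0.05. DESeq2 1.42.0 was an alternative. Totals times TMM factors were the divisors of CPM, and a prior count of 2 was added for log2 CPM. Each SE is the coefficient over the root of its F statistic, and 95% intervals use the total degrees of freedom. Single genes were also tested by exact 2-sided permutation over the 35 divisions of the libraries, whose smallest p is 0.0286. The fit was also run on simulated counts in which genes varied independently and changed genes differed by 1.5-fold or more. Smaller changes and shifts shared by many genes were not simulated. Symbols, transcript lengths (longest coding transcript) and overlaps were taken from GENCODE M21 (GRCm38), an older build than mm39, and lengths and overlaps there may differ from those the authors counted. Promoters came from RefSeq on GRCm38.p6.

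No 2 libraries were copies of each other: chi-square over its degrees of freedom was 11.1 to 50.8 for the pairs. All 40 genes are named, and of the other lists the gene with the smallest p and those whose groups do not overlap. Cdkn1a and Cdkn1c were named after their values were seen. The genes, lists and alternatives were chosen with earlier results of these data known. Of 288 list entries 286 were matched and 285 tested.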

Additional observations from a re-analysis of the deposited data

Results flagged for a closer look

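Among the 40 genes, 3 had a WT library far from the other 3, in each case WT replicate 2. Bub1 had 67.8 CPM there against 48.8 to 51.8 CPM in the other WT libraries. Aurkb had 111 CPM against 89.8 to 91.1 CPM, and Mcm2 208 CPM against 176 to 178 CPM. The gap to the nearest library was 0.839, 0.942 and 0.939 of the WT range for these genes, in that order. Chance alone marks about 1 in 20 such groups of 4, and the genes are not independent, since WT replicate 2 was highest for 34 of the 40. The cKO group of 3 was too small to be looked at this way.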

How the results depend on the processing

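The count of 0 called genes among the 40 was the same in all 15 alternatives, which were DESeq2, DESeq2 size factors, library totals, no filter, a filter at 1 CPM, each library left out, the replicate block, WT replicate 4 and cKO replicate 1 left out together, and length offsets. Leaving out single libraries gave group medians from −0.13 to 0.03 for mitotic and −0.11 to −0.0015 for replication genes. With all libraries they were −0.04 and −0.07, and the sign of the mitotic median turned without WT replicate 2 or cKO replicate 1. The other settings without a block gave −0.06 to −0.02 and −0.08 to −0.04. Over all features 1 was called, against 13 with DESeq2, 4 with no filter and 0 with DESeq2 size factors, library totals or the 1 CPM filter (234, 226 and 201 at an unadjusted p under 0.05 in edgeR). Leaving out single libraries gave 0 to 3: 3 without WT replicate 1 or 3, 1 without cKO replicate 1 and 0 without WT replicate 2 or 4 or cKO replicate 2 or 3, with 182 to 411 at an unadjusted p under 0.05. The cause of these differences was not tested. With the replicate number as a block, edgeR called 13 features and 0 of the 40 genes, with medians of −0.09 and −0.10. Whether the numbers pair the embryos is not given in the labels. Deviations of same-numbered libraries correlated at 0.284, 0.419 and 0.0597. For WT replicates 1 and 2 the same-numbered cKO library correlated best, whereas WT replicate 3 correlated better with cKO replicate 1 (0.142). Kif11 had 55 to 300 counts a library, and each of the other 39 genes at least 353.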
